A study of Mus musculus with 20 samples.

Results

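The genes examined were the homeobox factors Meis1 (ENSMUSG00000020160), Meis2 (ENSMUSG00000027210), Meis3 (ENSMUSG00000041420), Pbx2 (ENSMUSG00000034673) and Pbx3 (ENSMUSG00000038718), 5 of the 27998 genes listed in the single-cell RNA-seq (scRNA-seq) data. They were matched by gene symbol, and all 5 were found in the scRNA-seq and in the RNA-seq of cultured cells. The genes had been chosen by values measured in these same data, their levels across cell types, ages and Setd8 knockdown, so those levels are given as a description and without a test. In single-cell ATAC-seq (scATAC-seq), which did not enter that choice, the levels at the 5 loci are set beside them.

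Nestin-EGFP+ cells had been sorted by FACS from the dentate gyrus of C57BL/6 mice that carry the Nestin-EGFP transgene, at postnatal day 5 (P5), 12 weeks (12w) and 24 weeks (24w), to ask how hippocampal neural stem cells (NSCs) and their progeny differ with age. There was 1 scRNA-seq and 1 scATAC-seq library per age, the transgene marks whatever cells express the Nestin reporter, and age was mixed with sex in the scRNA-seq, where P5 held male and female cells, 12w female cells and 24w mostly male cells among those that could be told. RNA-seq was from cultured mouse NSCs, labelled hippocampus but described in the methods as a passaged line from embryonic cortex, collected 3 days after infection with a lentivirus carrying a scrambled shRNA (control) or an shRNA against Setd8, and selected with puromycin. Setd8 is the enzyme that places the H4K20me1 mark.

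Meis and Pbx proteins belong to the TALE class of homeobox factors, which have an extended loop in the DNA-binding homeodomain. Meis and Pbx bind DNA together as a complex, in which Pbx contacts Meis and can also contact a Hox protein or another homeodomain partner, and the Meis core site is read as TGAC. In the postnatal brain Meis2 is known for its part in the making of olfactory bulb neurons with Pax6 and Dlx2, and Meis and Pbx genes are expressed in many developing neurons.

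Sequences at the loci are shown because they carry the regions compared by scATAC-seq below, and because Meis2 RNA was lower with age in NSC-like cells and Meis3 RNA was not. Promoters, the 250 bases before the annotated start, came from a set of RefSeq promoters on GRCm38.p6 that held 4 of the 5 genes. The set lacked Pbx3, whose promoter was therefore not searched. That of Meis2 lies at chr2:116064620-116064869 on the minus strand and that of Meis3 at chr7:16175145-16175394 on the plus strand. The 4 intronic windows are the central 300 bases of regions on the minus strand of GRCm38 (mm10), 2 in introns of Meis2 (chr2:116009268-116009567 and chr2:115938668-115938967) and 2 in introns of Pbx3 (chr2:34179084-34179383 and chr2:34193816-34194115). Letters in capitals mark the Meis core TGAC, or GTCA where it reads on the other strand.

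Meis2 promoter: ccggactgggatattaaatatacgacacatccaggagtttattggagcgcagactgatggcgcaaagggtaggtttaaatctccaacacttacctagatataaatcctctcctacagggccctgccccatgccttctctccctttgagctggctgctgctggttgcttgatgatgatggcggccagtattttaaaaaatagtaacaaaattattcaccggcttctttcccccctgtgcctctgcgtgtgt
Meis3 promoter: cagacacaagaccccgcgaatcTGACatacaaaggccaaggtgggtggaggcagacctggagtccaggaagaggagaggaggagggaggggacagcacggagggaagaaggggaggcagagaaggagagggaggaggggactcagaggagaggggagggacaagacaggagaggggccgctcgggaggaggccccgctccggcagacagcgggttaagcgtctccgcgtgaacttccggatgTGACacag
Meis2 intronic region less open at the later ages: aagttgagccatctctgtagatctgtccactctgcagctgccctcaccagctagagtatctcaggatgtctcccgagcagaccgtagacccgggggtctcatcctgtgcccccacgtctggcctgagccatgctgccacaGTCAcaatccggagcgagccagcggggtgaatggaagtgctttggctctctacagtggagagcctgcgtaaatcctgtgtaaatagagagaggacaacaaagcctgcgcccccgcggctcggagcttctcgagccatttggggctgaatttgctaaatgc
Meis2 intronic region within 1.5-fold: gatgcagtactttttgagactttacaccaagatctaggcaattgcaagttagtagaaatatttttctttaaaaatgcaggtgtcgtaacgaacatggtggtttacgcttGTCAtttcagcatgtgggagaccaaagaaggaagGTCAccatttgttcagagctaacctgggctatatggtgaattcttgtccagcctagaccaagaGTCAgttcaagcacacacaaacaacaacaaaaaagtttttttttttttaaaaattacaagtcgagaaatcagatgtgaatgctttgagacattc
Pbx3 intronic region less open at the later ages: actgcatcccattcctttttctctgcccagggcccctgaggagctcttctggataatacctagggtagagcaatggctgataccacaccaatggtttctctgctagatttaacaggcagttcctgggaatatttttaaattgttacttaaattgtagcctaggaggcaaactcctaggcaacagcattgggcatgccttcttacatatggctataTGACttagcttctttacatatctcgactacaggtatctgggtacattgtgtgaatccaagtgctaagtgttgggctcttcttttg
Pbx3 intronic region more open at the later ages: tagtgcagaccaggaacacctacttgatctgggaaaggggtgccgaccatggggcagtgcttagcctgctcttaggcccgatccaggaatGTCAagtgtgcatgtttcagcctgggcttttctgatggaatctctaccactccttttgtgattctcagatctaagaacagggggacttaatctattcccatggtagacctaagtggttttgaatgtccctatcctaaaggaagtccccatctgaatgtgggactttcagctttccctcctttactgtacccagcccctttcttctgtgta

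Both strands were searched for TGAC, for the longer Meis site TGACAG, for the joint Pbx and Meis site TGATTGAC and for the joint Pbx and Hox site TGATTNAT. TGAC lies within TGACAG and TGATTGAC, and it also begins the AP-1 site TGACTCA, so a match does not name a factor. The Meis3 promoter held 2 copies of TGAC and those of Meis1, Meis2 and Pbx2 held 0, while 80.2% of 32851 promoters of the same length held at least 1. The window that was less open in Meis2 held 1 copy, the window that kept its level held 3, and each Pbx3 window held 1, against 86.0% of 94893 region windows with at least 1. TGACAG (15.9% of promoters, 22.1% of region windows), TGATTGAC (0.691% and 0.659%) and TGATTNAT (2.83% and 3.76%) had 0 matches in the 8 sequences examined.

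In the scRNA-seq, the P5, 12w and 24w libraries kept 12752, 5271 and 2794 cells, with median unique molecular identifiers (UMIs, each standing for 1 captured RNA molecule) of 4261, 2271 and 2178. Marker genes gave clusters their names, which are NSC-like, neural progenitor (NPC)-like, immature neuron (IMN1- and IMN2-) like, astrocyte (AS)-like and so on. NSC-like cells numbered 1333, 454 and 116 with 5914118, 1568061 and 404449 UMIs in all, and all 9 NSC markers were detected in them at each age. Levels are UMIs summed over the cells of a class, given per 1000000 UMIs of that class (CPM), and the intervals in brackets are exact 95% intervals, which hold counting error alone and no difference between animals. A fall in a class was counted where the level was at least 2-fold lower at both 12w and 24w than at P5 with at least 20 UMIs at P5, and a rise likewise with at least 20 UMIs at both later ages. Barcodes shared between libraries numbered 26 to 86 per pair. Part of the UMIs of NSC-like cells was taken as free RNA, estimated from 20 vascular markers at 9.55% at 12w and 10.6% at 24w. The estimate counts every UMI of those markers as free. The 6 smooth muscle markers among them summed to 428 CPM in NSC-like cells already at P5, and to 420 and 438 CPM later. Free RNA could not be read at P5 because that library lists selected barcodes.

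Meis2 was much lower in the NSC lineage at both later ages, though in NSC-like cells most P5 UMIs came from their largest cluster, as given below. In NSC-like cells 528 UMIs gave 89.3 CPM (81.8 to 97.2) at P5, while 4 UMIs gave 2.55 CPM (0.695 to 6.53) at 12w and 2 UMIs gave 4.95 CPM (0.599 to 17.9) at 24w. This was 35.0-fold lower at 12w (13.6 to 129) and 18.1-fold lower at 24w (4.97 to 149), the last resting on 2 UMIs. The later ages could not be told apart (24w to 12w ratio 1.94, 0.175 to 13.5). Free RNA was predicted to give 1.38 CPM at 12w and 0.470 CPM at 24w. Markers of OPCs, the oligodendrocyte precursors, which themselves hold Meis2, were lower in the same cells, their 7 genes summing to 544, 65.0 and 91.5 CPM at the 3 ages, with all 7 detected at P5 and at 12w and 3 at 24w, where Lhfpl3, Neu4, Olig2 and Pdgfra were at 0.

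Its level was also lower in the progeny of NSCs. In NPC-like cells, the cycling class, Meis2 went from 50.6 CPM at P5 to 2.98 CPM at 12w, and with 0 UMIs at 24w it was at least 5.50-fold lower there against a floor of 3 UMIs over the class. In IMN1-like cells it was at 54.2, 5.13 and 18.8 CPM, the last from 3 UMIs, with a ratio at 24w of 0.348 whose interval (0.0707 to 1.04) reached no change. In IMN2-like cells, the later immature neurons, it was at 40.1, 7.06 and 3.31 CPM, and with at least 2000 UMIs per cell the 12w level was 3.95 CPM from 7 UMIs. The OPC markers summed to 799, 37.6 and 42.9 CPM in NPC-like, 323, 21.4 and 12.6 CPM in IMN1-like and 441, 25.5 and 46.3 CPM in IMN2-like cells. The 9 AS markers summed to 489, 128 and 98.0 CPM, 195, 55.5 and 25.1 CPM and 245, 68.9 and 99.2 CPM in the same classes. The part of either list in the Meis2 levels was not tested. The classes thus shared a P5 level several times that at 12w, and at 24w the few cells left wide intervals.

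AS-like, ependymal and OPC-like cells kept more Meis2. AS-like cells went from 103 CPM (98.4 to 108) to 32.0 CPM (20.7 to 47.2) and 41.8 CPM (20.9 to 74.7), 3.22-fold (2.18 to 4.99) and 2.47-fold (1.38 to 4.95) lower than at P5. With clusters cut at a resolution of 1.2 the class had 105, 14.8 and 22.5 CPM instead, with ratios to P5 of 0.141 and 0.214. The OPC markers in AS-like cells summed to 1015, 490 and 243 CPM. Ependymal (EPD)-like cells had 93.0, 61.3 and 75.1 CPM, with ratios to P5 of 0.659 (0.260 to 1.40) and 0.808 (0.477 to 1.30), so no difference between ages was detectable at this depth. Oligodendrocyte precursor (OPC)-like cells had 84.5 CPM at P5, 65.2 CPM at 12w from 11 UMIs and 113 CPM at 24w from 3 UMIs. Oligodendrocyte (OL)-like cells had less, with 21.3 CPM at P5, 4.53 CPM at 12w from 1 UMI and again 21.3 CPM from 3 UMIs at 24w, and no difference was detectable at this depth (intervals of the ratio to P5 of 0.00515 to 1.32 and 0.191 to 3.35). In pericyte (PC)-like cells Meis2 was low throughout, at 15.7, 1.27 and 0.273 CPM from 47, 6 and 1 UMIs, and was also counted as lower.

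Meis1, a close relative of Meis2, was sparse. It was at 4.40 CPM (2.87 to 6.44) in NSC-like cells at P5 from 26 UMIs, with 0 UMIs at 12w and at 24w. At 12w this was at least 2.30-fold lower, while at 24w 3 UMIs already correspond to 7.42 CPM, above the P5 level, so a fall was not detectable there. NPC-like cells had 4.82 CPM at P5 and 0 UMIs later, at least 2.69-fold lower at 12w and again not detectable at 24w. AS-like cells had 6.68, 2.56 and 0 CPM from 115, 2 and 0 UMIs, where the ratio at 12w of 0.383 had an interval of 0.0458 to 1.42 and 3 UMIs at 24w correspond to 11.4 CPM, so no fall was detectable at either age.

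Meis3 was detected in every class at P5 and was not counted as lower in NSC-, NPC-, IMN1-, IMN2- or AS-like cells. In NSC-like cells it was at 40.1 CPM (35.1 to 45.5), 58.0 CPM (46.7 to 71.3) and 47.0 CPM (28.3 to 73.4), with ratios to P5 of 1.45 (1.12 to 1.85) and 1.17 (0.693 to 1.87). IMN2-like cells had 56.6, 65.1 and 66.2 CPM, NPC-like cells 24.7, 33.4 and 21.4 CPM, and AS-like cells 33.3, 33.3 and 19.0 CPM. Free RNA held 98.3 CPM of Meis3 at 12w and 86.6 CPM at 24w, and 10.5 CPM of the 24w level in AS-like cells was predicted to be free. With it subtracted at the later ages and not at P5, the ratio at 24w went from 0.570 to 0.289 in AS-like and from 0.867 to 0.530 in NPC-like cells. Ratios in IMN1-like cells were 1.49 and 1.26. At 12w NSC-like cells thus had 91 UMIs of Meis3 beside 4 of Meis2, where at P5 Meis2 had given 528 and Meis3 237.

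The Pbx genes showed no change of 2-fold at both ages in any class in which they could be followed. Pbx2 was at 19.6, 17.9 and 9.89 CPM in NSC-like cells, from 116, 28 and 4 UMIs, with ratios of 0.910 (0.580 to 1.39) and 0.504 (0.135 to 1.33). It was at 22.3, 16.6 and 38.0 CPM in AS-like cells, the last from 10 UMIs (18.2 to 69.8), and at 30.7, 35.2 and 30.3 CPM in PC-like cells. Pbx3 was sparse, at 2.71, 1.28 and 0 CPM in NSC-like cells from 16, 2 and 0 UMIs, and at 10.7, 8.07 and 7.09 CPM in PC-like cells from 32, 38 and 26 UMIs. No change of Pbx3 in the neurogenic classes was detectable at this depth.

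**Figure D1:**
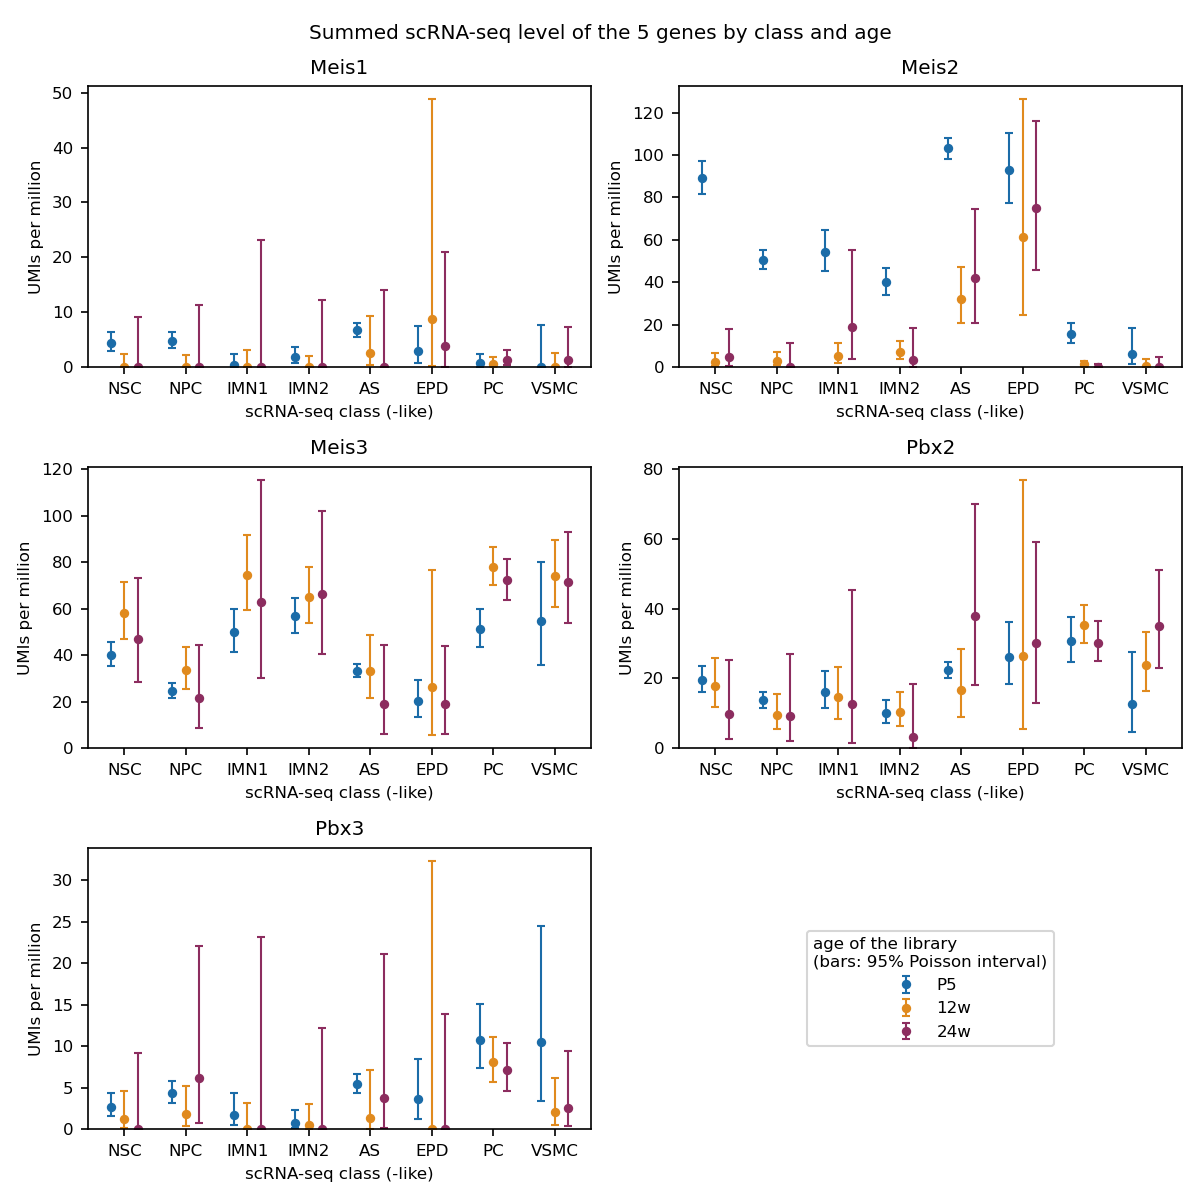
Level of each gene in summed scRNA-seq (CPM, linear axis) by class, with 1 point per age and 95% Poisson intervals for counting error only. Meis2 in NSC-like cells is at 89.3 at P5, 2.55 at 12w and 4.95 at 24w, while Meis3 lies between 40.1 and 58.0.

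By this count 8 of the 25 pairs of a gene and a class among NSC-, NPC-, IMN1-, IMN2- and AS-like cells met the rule for lower and 0 that for higher, Meis2 in 5 classes and Meis1 in NSC-, NPC- and AS-like cells. The rule takes no account of counting error at the later ages, and 4 of the 8 pairs, the 3 of Meis1 and Meis2 in IMN1-like cells, were not lower at 24w beyond it. Of all genes that could be counted, 6.29% were lower in NSC-like cells, 6.06% in NPC-like, 2.85% in IMN1-like, 3.78% in IMN2-like and 10.7% in AS-like cells, and in PC-like cells 11.3%. Those higher were 3.34%, 1.51%, 0.992%, 1.62% and 2.73% in the 5 classes in the same order. Since the genes were chosen with these values in view, the count is not compared with those shares. The libraries differed in sex, and female NSC-like cells at P5 had more Meis2 than male ones, 101 against 69.3 CPM (ratio 1.46, 1.15 to 1.86). Set against P5 cells of the same sex, Meis2 stayed counted as lower in these 5 classes, while Meis1 in NSC-like and NPC-like cells was left with fewer than the 20 UMIs the rule asks for (9 female and 3 male in NSC-like, 10 female in NPC-like cells) and could not be counted, with a ratio of 0 at both ages as before. Whether sex has a part in the differences was not tested otherwise.

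Within the NSC-like class at P5 Meis2 was not uniform. The largest cluster (816 cells at P5, led by Ass1, Naaa and Itih3) had 144 CPM (132 to 158), and the second (480 cells, led by Gdf10, Frzb and Gas1) had 10.2 CPM (6.47 to 15.3), so that 500 of the 528 UMIs came from the largest. Clusters were formed from the same cells, so this contrast has no test. The largest cluster had 2.61 CPM (0.537 to 7.61) at 12w from 3 UMIs and 6.10 CPM from 2 UMIs at 24w, and the second had 1 UMI at 12w and then 0. Lower levels at the later ages were therefore also found within the largest cluster alone. In the second, the intervals at 12w (0.0661 to 14.6) and 24w (0 to 54.1) overlapped that of P5, so no fall was detectable there. The largest cluster scored 1.11 for NSC and 0.830 for AS markers. The second scored 1.49 for NSC markers, and its next list scored 0.138. The 2 large NPC-like clusters had 46.4 and 48.0 CPM at P5, and the 2 AS-like clusters with most cells 114 and 90.9 CPM. At a finer clustering (resolution 1.2) a cluster led by Ass1, Itih3 and Naaa took the name AS-like, with scores of 0.990 for AS and 0.969 for NSC markers. It held 434 P5, 268 12w and 79 24w cells, beside 1333, 454 and 116 in the NSC-like class at a resolution of 0.8. How many cells the cluster and that class shared was not tested, so the naming of many later NSC-like cells may hang on the resolution. Over 7 alternative settings, this one included, Meis2 stayed counted as lower in NSC-like cells. Its lowest and highest ratios to P5 were 0.0145 and 0.0305 for 12w, and 0 and 0.0714 for 24w.

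**Figure D2:**
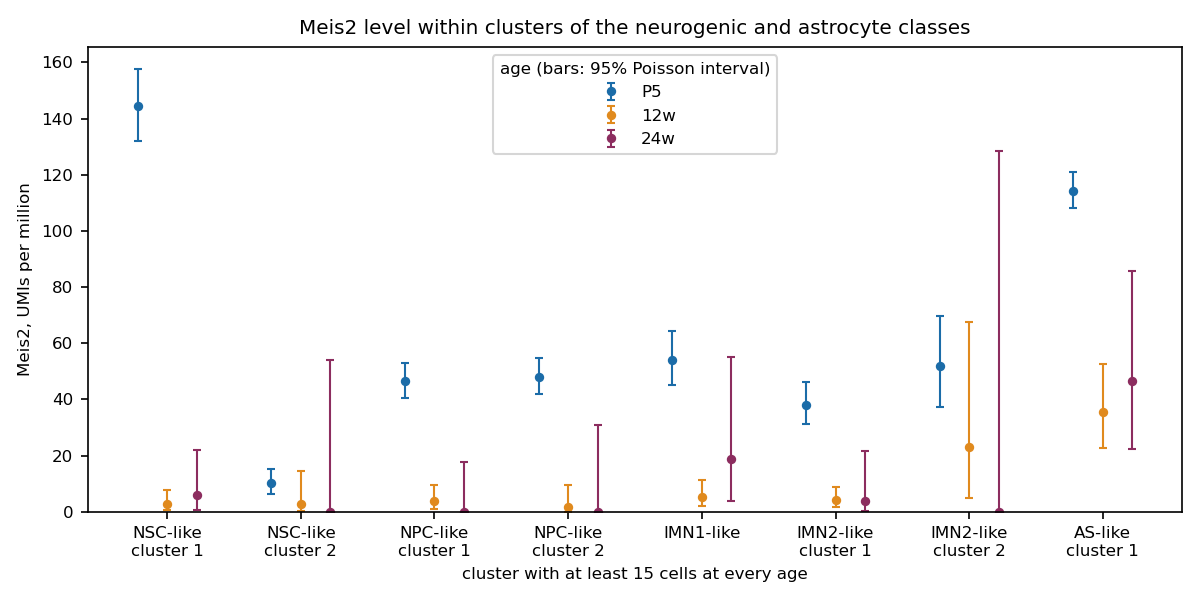
Meis2 (CPM, linear axis) in each cluster of the neurogenic and astrocyte classes with at least 15 cells at every age, numbered by size within a class, with 95% Poisson intervals. The first NSC-like cluster stands at 144 at P5 and the second at 10.2, and at 12w both are at 2.61, from 3 UMIs in the first and 1 in the second.

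The order of Meis2 was taken across classes with at least 100000 UMIs. At P5 the 4 highest of 13 classes, AS-like, EPD-like, NSC-like and OPC-like (103, 93.0, 89.3 and 84.5 CPM), did not differ from their neighbours beyond counting error, and OPC-like cells were 1.56-fold (1.29 to 1.90) above the next, IMN1-like cells. At 12w GABA-like cells, of which 67 were captured, led with 1710 CPM (1537 to 1897) from 356 UMIs, 26.2-fold (14.5 to 53.1) above OPC-like cells. Their cluster was led by Sp9, Dlx6os1, Tiam2 and Sp8. It scored 2.21 for markers of GABA (inhibitory) neurons and 1.61 for IMN2 markers, with 4 raised in each list, and its kind of neuron was not tested. NSC-like cells then ranked 9 of 12 classes and did not differ from NPC-like or PC-like cells next to them. At 24w, EPD-like cells were highest with 75.1 CPM, and no neighbours among 10 classes differed beyond counting error. GABA-like cells were 12 at P5 and 2 at 24w, below that number of UMIs. With 418 CPM (265 to 627) they would have led the order at P5 too. Their 482 CPM (157 to 1126) at 24w came from 5 UMIs, all in 1 of the 2 cells, and gives no rank. A cluster led by Sst and Npy, with 102 cells at P5, stayed unnamed and was not in the order. Whether GABA-like cells were the same kind of cell at each age was not tested.

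Meis3 was spread more evenly. At P5 the 4 highest classes were IMN2-like, OPC-like, vascular smooth muscle (VSMC)-like and PC-like cells (56.6, 56.4, 54.6 and 51.1 CPM), and only NSC-like over AS-like cells (interval of the ratio 1.03 to 1.40) and AS-like over NPC-like cells (1.35-fold, 1.16 to 1.57) differed among neighbours. At 12w and 24w no neighbours differed, with PC-like cells at 78.1 and 72.2 CPM. Also at P5, Pbx2 had 30.7 CPM in PC-like, 19.6 CPM in NSC-like and 10.1 CPM in IMN2-like cells, Pbx3 had 10.7 CPM in the PC-like class against 2.71 CPM in NSC-like cells, and Meis1 had 11.5 CPM in the OPC-like class against 4.40 CPM in the NSC-like one. In those P5 orders of 13 classes no neighbours differed beyond counting error. Some neighbours had few UMIs, such as 1 of Meis1 in endothelial (EC)-like cells. The classes named above were not neighbours, and their intervals did not overlap. PC-like and NSC-like cells had 24.8 to 37.7 against 16.2 to 23.5 CPM of Pbx2 and 7.32 to 15.1 against 1.55 to 4.39 CPM of Pbx3. For Meis1, OPC-like and NSC-like cells had 9.35 to 13.9 against 2.87 to 6.44 CPM.

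Among 12514 genes, those most like each member over 35 groups of class and age, by Pearson's r of log2(CPM + 10), were Nrxn3 (0.863), Grip1 (0.807) and Meis2 (0.726) for Meis1. For Meis2 they were G630016G05Rik (0.795), Grip1 (0.792) and Lmo3 (0.779), for Meis3 Cnrip1 (0.793), Fam110b (0.785) and Pkia (0.785), for Pbx2 Pros1 (0.745), Capn2 (0.743) and Sat1 (0.727), and for Pbx3 Tmem234 (0.678), Ier3 (0.659) and Mtf1 (0.646). Meis2 and Meis3 were at 0.115. The groups share 3 libraries, so these values are descriptions and carry no test. Among the groups, GABA-like cells at 12w held the most Meis1 and Meis2 (28.8 and 1710 CPM), and Nrxn3 was among the leading genes of that cluster. The part of this group in the values for Meis1 and Meis2 was not tested.

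The other TALE genes and known partners were counted by the same rule. Of 13 other TALE genes, 6 could be counted in NSC-like cells and 1 was lower, Tgif2, a repressor of TGF-beta signalling, with 218, 22 and 4 UMIs. In NPC-like cells 1 of 7 met the rule for lower, Irx1, with 22, 0 and 0 UMIs, and in AS-like cells 3 of 7 did, Tgif2, Irx1 and Pbx4, the last with 391, 3 and 1 UMIs. Irx1 was at 2.26 CPM in NPC-like and 1.80 CPM in AS-like cells at P5. There 3 UMIs correspond to 9.18 CPM in NPC-like cells at 24w and to 3.84 and 11.4 CPM in AS-like cells at 12w and 24w. A fall of Irx1 was thus not detectable in NPC-like cells at 24w or in AS-like cells at either age. Of 10 partner genes, 4 could be counted in NSC-like cells and 1 was lower, Klf4, a zinc-finger factor that can act with Meis and Pbx, at 18.3, 7.02 and 4.95 CPM, and Klf4 was also the 1 of 7 in NPC-like cells. There it was at 3.90 CPM at P5, below the 9.18 CPM of 3 UMIs at 24w, so its fall was not detectable at that age. Pax6, a partner of Meis2, was at 231, 142 and 146 CPM in NSC-like cells, and Dlx2, which NPC-like cells held at 34.5, 25.6 and 6.12 CPM, was not counted as changed there. No TALE or partner gene was higher in the 5 classes, and none of 39 Hox genes had enough UMIs to be counted in any of them.

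In the scATAC-seq, nuclei took their class from the scRNA-seq by label transfer, which gave 398, 523 and 184 NSC-like nuclei at P5, 12w and 24w. Gene activity is the number of transposase counts in peaks over the gene and 2 kb upstream given per 1000000 counts in regions shared by the libraries (also written CPM), and a change was counted at 1.5-fold at both later ages. Peaks were called in each library apart, with 16, 9 and 7 peaks covering 24738, 15790 and 10528 bases at Meis2 and 1, 2 and 2 peaks covering 4601, 14044 and 14557 bases at Pbx2. Age differences in activity carry those differences in covered length.

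Summed over its peaks, Meis2 activity was lower at the later ages in NSC-like nuclei, but it was not lower per covered kb. Its activity was 109 CPM (101 to 118) at P5, 69.8 CPM (63.8 to 76.2) at 12w and 50.9 CPM (44.1 to 58.3) at 24w, from 1375, 1005 and 409 counts, with ratios to P5 of 0.639 and 0.466. Per covered kb the values were 4.41, 4.42 and 4.83 CPM, and with regions that had a peak in every library the ratio at 12w was 0.701 and no longer passed 1.5-fold. AS-like nuclei had 225, 132 and 99.9 CPM and OPC-like nuclei 219, 116 and 84.0 CPM, the last from 16 nuclei. IMN2-like nuclei, with 90.3, 87.4 and 92.3 CPM, and EPD-like nuclei, with 129, 162 and 157 CPM, did not pass the rule for lower, nor did NPC-like nuclei with 124, 109 and 103 CPM. IMN1-like nuclei, a class in which Meis2 RNA was counted as lower, had 84.9, 111 and 130 CPM, with ratios to P5 of 1.31 (1.16 to 1.49) and 1.53 (1.16 to 2.00).

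Classes of the same library share its peaks, but the peaks summed over Meis2 numbered 16, 9 and 7 at the 3 ages, and their part in the ratios between classes was not tested. NSC-like to EPD-like, Meis2 activity at the 3 ages was 0.848 (0.680 to 1.07), 0.430 (0.383 to 0.482) and 0.323 (0.271 to 0.384), so the intervals of the later ages lay below that of P5. NSC-like to IMN2-like the ratios were 1.21 (1.10 to 1.33), 0.797 (0.722 to 0.880) and 0.550 (0.465 to 0.647), which likewise did not overlap. Against 3 other glial classes the intervals at the 3 ages overlapped, with ratios of 0.485, 0.526 and 0.508 to AS-like, 0.50, 0.598 and 0.618 to OPC-like and 0.619, 0.617 and 0.547 to OL-like nuclei. Against PC-like nuclei, in which Meis2 was less accessible at each age, the ratios were 2.98, 4.58 and 5.29. With 1 library per age, these differences have no replicate error.

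Meis1 activity in NSC-like nuclei was 31.8, 15.5 and 10.9 CPM and in AS-like nuclei 64.8, 17.5 and 17.4 CPM, both counted as lower. Per covered kb the NSC-like values were 2.68, 2.37 and 2.30 CPM over 11904, 6546 and 4766 bases, and with 2 kb either side of the start site the ratios of 0.723 and 0.581 did not both pass 1.5-fold. Meis2 in AS-like nuclei did not pass with that window either. Meis3 was at 21.2, 19.0 and 14.4 CPM in NSC-like nuclei and was not. Pbx2 activity was counted as higher at both later ages in the 5 classes (62.0, 144 and 131 CPM in NSC-like nuclei), also with 2 kb around the start site and with regions that had a peak in every library. Each of these settings sums the peaks called in each library, so each carries the difference in covered length. Per covered kb Pbx2 in NSC-like nuclei was lower later, at 13.5, 10.2 and 8.98 CPM. In the merged region around its start site the level was 134, 137 and 125 CPM, and the part of peak length in the difference was not tested. Pbx3 had ratios to P5 of 0.954 and 1.07 in NSC-like nuclei and was higher in IMN2-like nuclei with 73.4, 113 and 124 CPM, though not with 2 kb around the start site (ratios 1.19 and 1.38). In all 10 of 25 pairs passed 1.5-fold, 4 lower and 6 higher. Of all genes, 10.1% were lower and 4.97% higher in NSC-like nuclei, 5.78% and 3.47% in NPC-like, 6.93% and 3.46% in IMN1-like, 4.74% and 6.67% in IMN2-like and 17.2% and 3.76% in AS-like nuclei.

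**Figure D3:**
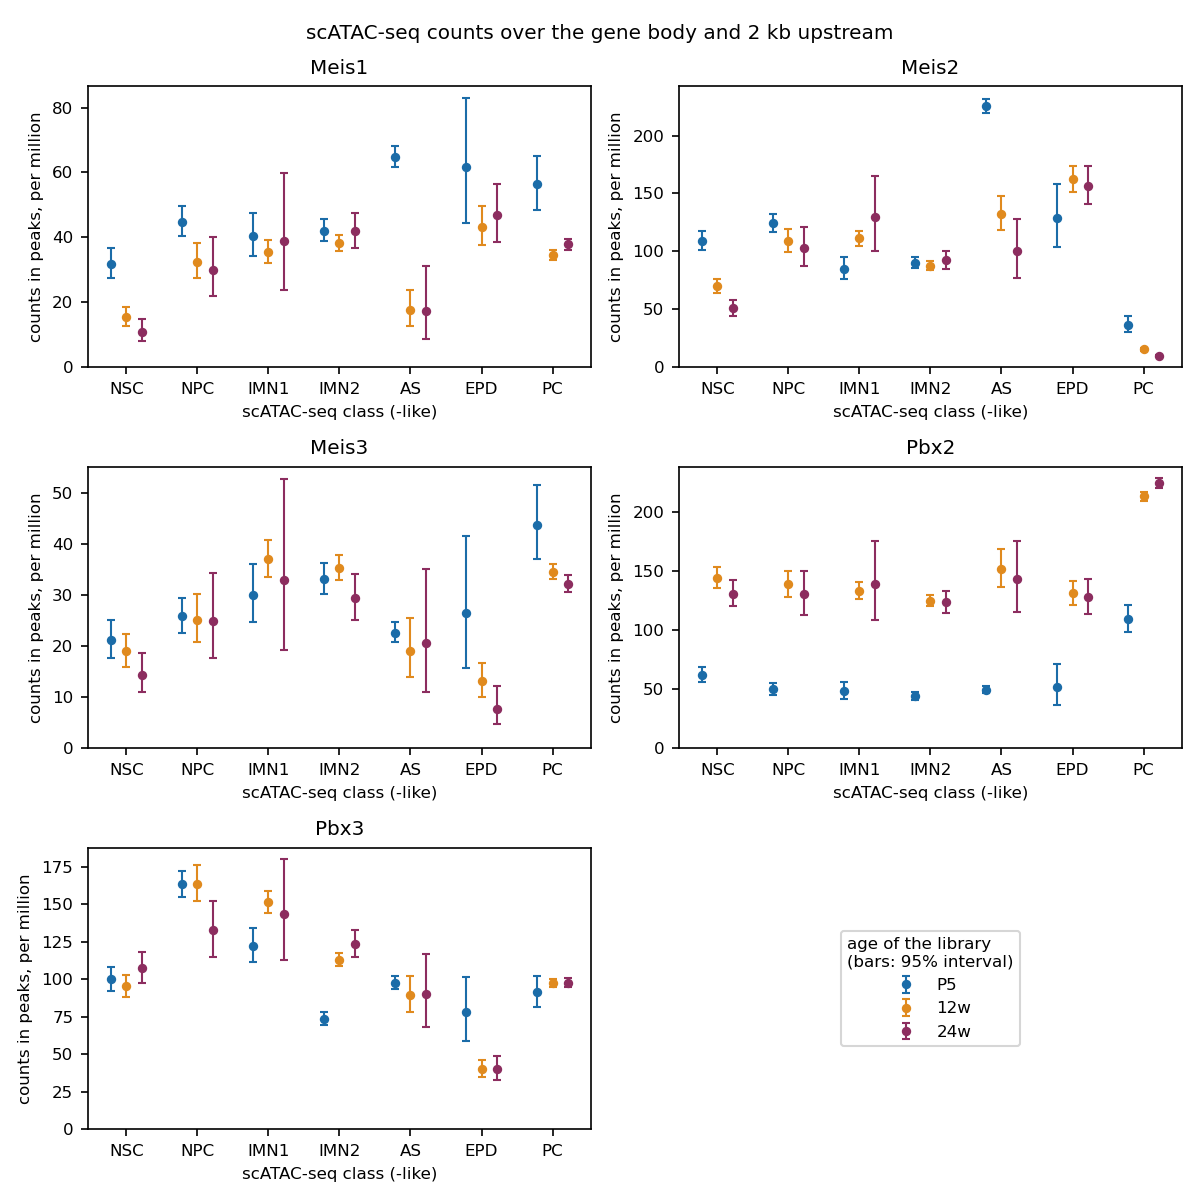
scATAC-seq counts over each gene and 2 kb upstream (CPM, linear axis) by class, with 1 point per age and 95% intervals for counting error only. Meis2 goes from 109 to 69.8 and 50.9 in NSC-like nuclei and lies between 87.4 and 92.3 in IMN2-like nuclei, and Pbx2 in NSC-like nuclei goes from 62.0 to 144 and 131. The Pbx2 peaks cover 4601 bases at P5, 14044 at 12w and 14557 at 24w, and the Meis2 peaks 24738, 15790 and 10528.

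Single regions were compared in NSC-like nuclei where all 3 libraries had a peak and there were at least 20 counts at P5 or at both later ages. At Meis2, 6 of 17 regions met this and 5 were less open at both later ages, against 16.4% of 72480 regions. The region at the start site (chr2:116059959-116068326) had 43.1, 27.4 and 16.5 CPM. The region in the intron whose centre lies 56422 bases into the gene (chr2:116008704-116010131), shown above as the window less open, had 9.37, 2.71 and 1.62 CPM, with peaks of 1428, 861 and 474 bases. The sixth region, 127021 bases into the gene (chr2:115937751-115939885), had 27.3, 30.6 and 30.0 CPM and peaks of 2135, 1857 and 1799 bases. Counts within 1 gene thus differed between its regions, with the distal intron level at each age and the rest lower. Each region sums the peaks called in each library, and the part of peak length in this contrast was not tested.

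At Pbx3, 7 of 23 regions could be compared, with 1 less open and 2 more open, against 11.5% of regions more open. The less open region (chr2:34178640-34179828, intron) had 9.13, 1.60 and 1.62 CPM, from 115, 23 and 13 counts. The more open one that is shown above (chr2:34193055-34194876, intron) had 12.7, 19.4 and 25.7 CPM, with peaks of 1793, 1810 and 1696 bases. The Pbx3 start region was level at 65.9, 59.2 and 65.3 CPM. At Meis1 2 of 3 compared regions were less open, at Meis3 0 of 1 changed, and at Pbx2 1 of 2 was more open.

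**Figure D4:**
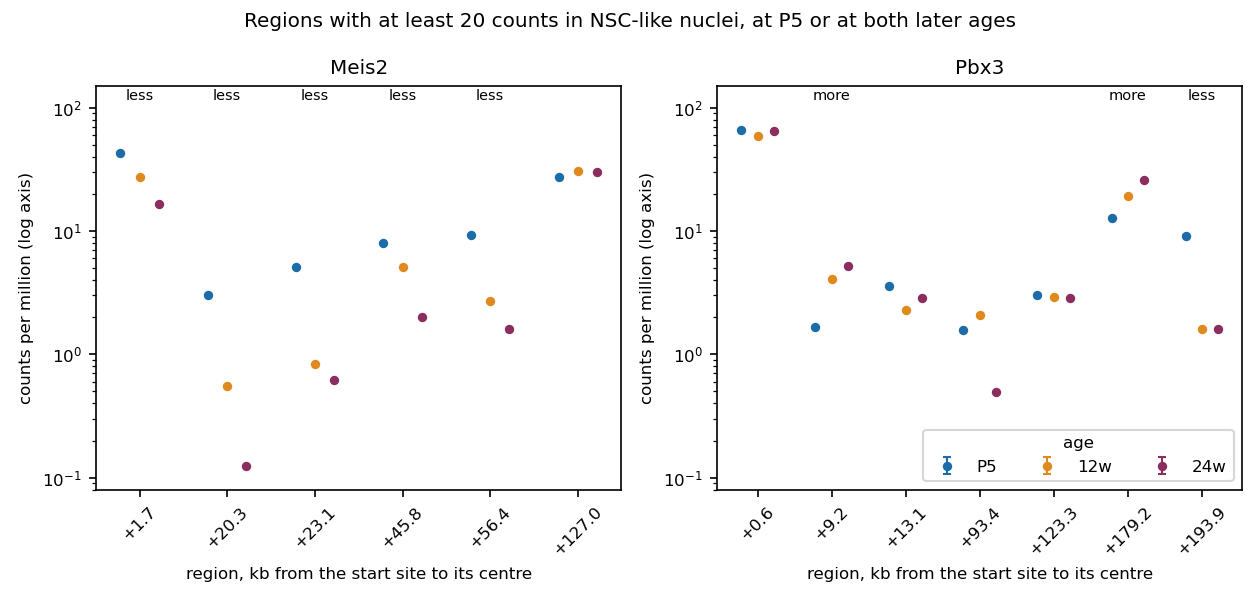
Level (CPM, log axis) in NSC-like nuclei for each region compared at Meis2 and Pbx3, ordered by distance in kb from the start site to the centre of the region, with "less" and "more" above those past 1.5-fold at both later ages. At Meis2 5 of 6 regions are lower later and the most distal stays at 27.3 to 30.6, while Pbx3 has regions of both kinds.

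In the cultured NSCs, 4 of the 6 files of the RNA-seq samples hold TPM (a level per gene length that sums to 1000000 in each library), and the other 2 hold gene names and lengths. For 169 of 169 genes those 4 equal, within a relative tolerance of 0.0001 and in turn, 3 control columns and 1 knockdown column of the authors' own table, so the libraries labelled Ctrl_3, Setd8KD_1 and Setd8KD_2 were taken as controls and the library labelled Setd8KD_3 as the knockdown. Setd8 followed that grouping, with 154, 143 and 143 TPM in the controls and 36.4 TPM in the knockdown. The knockdown is 1 library, so the spread comes from the 3 controls alone and nothing shows that they were separate cultures.

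Meis3 was the member with the largest difference, at 17.9, 14.5 and 16.3 TPM in the controls (16.2 ± 1.72, SD, n = 3) and 26.1 TPM in the knockdown, a difference of 0.66 on the scale of log2(TPM + 1). Pbx2 was at 29.4, 24.5 and 26.2 TPM in the controls and 33.7 TPM in the knockdown (0.33). Both lay above their controls. Meis1 was at 17.0, 17.7 and 18.0 TPM in the controls and 12.6 TPM in the knockdown, below them (-0.44). Pbx3, at 22.3, 21.4 and 19.9 TPM in the controls and 19.3 TPM in the knockdown, lay just below them (-0.13).

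Meis2 was at 34.1, 31.1 and 31.8 TPM in the controls and 31.4 TPM in the knockdown, within their range (-0.04). A limma fit on all genes, given as background, called 1880 of 12703 genes (14.8%) at 1.5-fold and an adjusted p of at most 0.05, 840 higher (6.61%) and 1040 lower (8.19%). Of the 5 genes 4 lay outside the range of the controls, as 82.0% of all genes did. The median log2 difference was -0.04 over the 5 and 0.0011 over all genes tested. These comparisons were used to choose the genes, so no test of the 5 is given and nothing is read from the count.

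**Figure D5:**
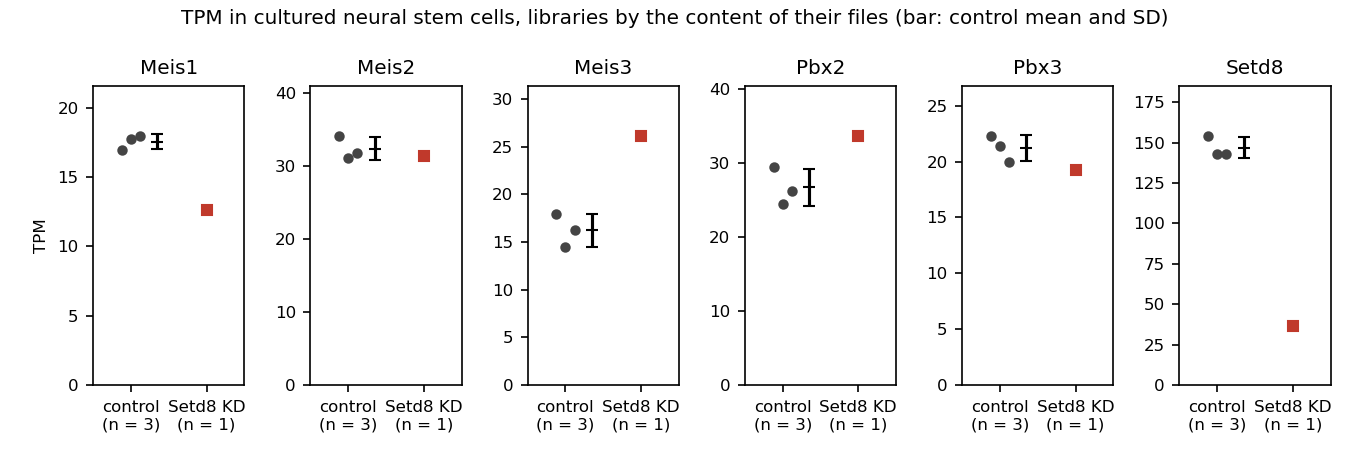
TPM (linear axes from 0) of the 5 genes and Setd8 in cultured NSCs, with 3 control libraries as circles, their mean and SD as a bar, and the knockdown library as a square. Meis3 stands at 26.1 above its controls and Meis1 at 12.6 below, while Meis2 at 31.4 lies within its controls.

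Among 13 other TALE genes 9 had a mean TPM of at least 1 in the cultured cells. The largest differences were those of Irx3 (4.22 ± 0.340 TPM in controls, 7.20 TPM in the 1 knockdown library, log2 difference 0.65) and Pbx4 (14.3 ± 0.635 and 9.17 TPM, -0.59). Since 82.0% of all genes lay outside the range of their controls, nothing is read from these values. Of 10 partner genes 5 reached that mean, and Pax6 had the largest difference (23.6 ± 1.04 TPM in controls, 14.4 TPM in the knockdown, -0.67), which is given as a description too. With the libraries grouped by their labels 0 genes were called. Pbxip1, a cytoplasmic partner of Pbx proteins, was at 264 ± 6.01 TPM in controls and 180 TPM in the knockdown, short of 1.5-fold. Of 39 Hox genes 2 had a mean TPM of at least 1.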

How the data were processed

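For scRNA-seq the authors deposited raw UMI counts of each gene in each barcode (Cell Ranger 2.2.0, mm10). For scATAC-seq they deposited raw counts of transposase sites in the peaks of each barcode (Cell Ranger ATAC, mm10). The RNA-seq values are TPM made by the authors after Trimmomatic and STAR on mm10, with read depths recovered from them of 20040233 to 21493510 per library.

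Barcodes with at least 1000 UMIs, 500 genes and no more than 10% of UMIs from mitochondria were kept, and doublets called with scrublet in scanpy 1.11.5 (932, 80 and 3) were removed. Seurat 5.3.0 was used to integrate the libraries over 2000 variable genes and 30 dimensions, to cluster at a resolution of 0.8, first over all cells and again over the neural classes, and to transfer labels to scATAC-seq nuclei (score at least 0.5). Neither the variable genes nor the naming used the genes examined. Markers decided the names, and clusters with mixed or too few markers stayed unnamed (1668, 396 and 208 cells). Levels were pooled per class and age with exact Poisson intervals, and ratios with exact conditional binomial intervals. TPM were compared by limma 3.58.1 (trend) on log2(TPM + 1) over genes with a mean TPM of at least 1, with Benjamini-Hochberg adjustment. Some rules of size and fits were tested on simulated data. The results of those tests are not given, and nothing is read from them for gene activity or for sparse genes.

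The text names the 5 genes, Setd8, other TALE, partner and Hox genes by count with values for those past the rule, Pax6, Dlx2 and Pbxip1 as known partners named after their values were seen, and for each gene the 3 most alike. Genes and lists were chosen with earlier results of these data known. RNA-seq libraries were grouped by the columns of the authors' own table that they equal, with GEO's labels as an alternative, and 2 of the 6 files hold no TPM. The bulk ATAC-seq and ChIP-seq samples were not used here.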

Additional observations from a re-analysis of the deposited data

Results flagged for a closer look

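Pbx3 accessibility in the scATAC-seq differed in direction between classes. In IMN2-like nuclei the ratio to P5 of its gene activity was 1.54 at 12w and 1.69 at 24w, and in EPD-like nuclei it was 0.514 at both, so both later ages lay above P5 in one class and below it in the other. With 2 kb either side of the start site the IMN2-like ratios were 1.19 and 1.38, and with regions that had a peak in every library 1.48 and 1.71, so neither setting passed 1.5-fold at both ages. The difference was not tested, since each age has 1 library, and the P5 value of EPD-like nuclei rests on 38 nuclei.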

How the results depend on the processing

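The count of 8 of 25 pairs lower in the scRNA-seq ranged from 6 to 8 over 7 alternatives (2 other resolutions, the largest cluster of a class, P5 cells matched by sex, free RNA subtracted, median-ratio scaling and a 1.5-fold rule), with Meis2 counted in all 5 classes under each. Meis1 fell short of the 20 P5 UMIs of the rule in NSC-like cells at a resolution of 1.2 (16 UMIs), where Pbx3 in AS-like cells was gained, in the largest NPC-like cluster (19 UMIs) and in both classes with sex matching, while its ratio was 0 at both ages throughout. With doublets kept, Pbx3 in IMN1-like cells at P5 went from 1.69 to 3.57 CPM. The scATAC-seq count of 10 of 25 pairs ranged from 8 to 10, losing Meis1 in NSC-like, Meis2 in AS-like and Pbx3 in IMN2-like nuclei with 2 kb either side of the start site, where Meis2 in IMN1-like nuclei was gained as higher, and Meis2 in NSC-like and Pbx3 in IMN2-like nuclei with regions that had a peak in every library, and at a label score of 0.7 no IMN1-like nuclei remained at 24w, so 20 pairs were compared. In the RNA-seq, the 1880 genes called became 975 with no filter on low values and 0 when the libraries were grouped by their labels (limma, 86 at an unadjusted p under 0.05), and ranged from 1865 to 1974 when 1 control was left out. The label grouping sets Setd8KD_1 and Setd8KD_2, which equal control columns, on the knockdown side. Under it the log2 difference of Pbx2 was -0.074, and that of Meis3 0.03. No paired analysis was possible because the 2 labelled groups share 1 replicate number among the libraries with TPM. With 1 library per age and 1 knockdown library, depth limits Meis1 and Pbx3 most, and differences between mice have no estimate.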
